A study of Mus musculus with 2 samples.

Results

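Rab genes encode small GTPases that mark the membranes of a cell and steer vesicles between them. They were taken here as the protein-coding genes of GENCODE M21 whose symbol is Rab followed by a digit, leaving out the interacting proteins named Rab3gap, Rab3il, Rab3ip and Rab11fip. The rule gave 60 genes of 22028 annotated protein-coding genes. Of these, 59 encode GTPases, and the remaining 1, Rab5if, is a Rab5-interacting factor taken by its name. Reads fell on 54 of the 60, on 53 in each library and on 52 in both.

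Adrenal glands of C57BL/6J mice from The Jackson Laboratory were profiled by long-read RNA-seq, with 2 biological replicates that form 1 group. In this assay 1 read follows 1 cDNA molecule and shows which exons were joined. The sample descriptions name wild-type females, whereas the sex field reads not collected and the age is unknown. The biosamples differ and carry the same donor label, and nothing states whether glands were pooled. No treatment or second genotype was given, so the replicates could be compared only with each other, replicate 2 over replicate 1.

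A Rab protein switches between a form bound to GTP, which sits on a membrane and recruits effectors, and a form bound to GDP, which GDI proteins hold in the cytosol. Exchange factors load GTP, GTPase-activating proteins end the active state, and prenyl groups on cysteines at the C terminus anchor the protein. In the adrenal gland such traffic serves hormone granules of the medulla and the handling of lipoproteins and lipid droplets in the cortex.

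Both features can be read in the coding sequences, which were taken from the GENCODE M21 transcripts (mm10) and are written 5′ to 3′ on the coding strand. The conserved stretch that contacts GTP was searched in frame, on that strand only, as codons for tryptophan, aspartate or glutamate, threonine, alanine and glycine in a row. Such a run was present in 52 of 60 Rab genes (86.7%), against 19 of 21513 other protein-coding genes (0.0883%). The 8 genes without it were Rab5if, Rab28, Rab40c, Rab29, Rab7b, Rab32, Rab40b and Rab38, which says only that this run of codons is not there. A cysteine codon stood among the last 4 codons before the stop in 59 Rab genes (98.3%), all but Rab5if, against 10.4% of the other genes. At least 2 such codons stood in 44 Rab genes, against 1.15% of the other genes. The windows below are shown for 7 genes to which the results return. Capitals mark the searched codons in the first line of each gene and the cysteine codons among the last 4 in the second, which ends with the stop codon.
Rab7 motif: atgcagatcTGGGACACAGCCGGTcaagaa
Rab7 coding end: gcagaaagcTGCagtTGTtga
Rab2a motif: ctccagatcTGGGATACAGCAGGGcaggag
Rab2a coding end: gcagggggaggcTGCTGTtga
Rab11b motif: gctcagatcTGGGACACTGCTGGCcaggag
Rab11b coding end: cagtgcTGCcagagcctgtga
Rab14 motif: ctgcagattTGGGATACAGCAGGGcaggag
Rab14 coding end: agagaaggcTGTggcTGCtag
Rab1b motif: ctgcagattTGGGACACAGCTGGTcaggag
Rab1b coding end: gctagcggtggcTGCTGCtag
Rab3d motif: ctgcagattTGGGACACAGCAGGCcaggag
Rab3d coding end: ccgagcagcTGCagcTGTtag
Rab27a motif: ctgcagttaTGGGACACGGCGGGGcaggag
Rab27a coding end: aaggggttgTGTggcTGTtga

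Sequencing gave 587861 reads for replicate 2 and 810239 for replicate 1. Levels are in CPM, in which the reads of each library are scaled to the same sum. A count of 0 allows up to 3 reads, or 5.10 CPM in replicate 2 and 3.70 CPM in replicate 1. All 6 cortex markers looked for and all 5 chromaffin markers were detected, and together they took 9.09% and 0.850% of reads in replicate 2, against 7.73% and 0.619% in replicate 1. The 4 macrophage markers took 0.0252% in replicate 2 and 0.0990% in replicate 1, and the 3 endothelial markers 0.0356% in replicate 2 and 0.0135% in replicate 1. Members of the cortex, chromaffin and macrophage lists went opposite ways. Cyp11a1, Cyp21a1 and Hsd3b1 (4960 CPM in replicate 2 and 13987 CPM in replicate 1) were lower in replicate 2. Star, Cyp11b1 and Nr5a1 (1878 CPM in replicate 2 and 301 CPM in replicate 1) were higher. Th (527 CPM in replicate 2 and 1210 CPM in replicate 1), Pnmt and Chga were lower in replicate 2, while Dbh (347 CPM in replicate 2 and 46.9 CPM in replicate 1) and Chgb were higher. Lyz2 (100.4 CPM in replicate 2 and 896 CPM in replicate 1) and Cd68 were lower in replicate 2, and Adgre1 and Csf1r (81.7 CPM in replicate 2 and 19.7 CPM in replicate 1) were above their level in replicate 1. Of the endothelial genes, Pecam1 and Plvap were higher in replicate 2. Cdh5 had 2 reads in replicate 2 and 4 in replicate 1, too few to give a direction. The kidney genes Umod and Slc34a1 and the liver gene Alb had 0 reads in both. These marker levels are not adjusted for transcript length, which the ratio between the libraries followed, as described below. The part of length in the marker differences was not tested. Whether the marker levels bear on the Rab values was not tested either. In tissue RNA, more cells of a type and more RNA per cell cannot be told apart.

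Rab genes held 1773 reads in replicate 2 (0.302%, 95% Clopper-Pearson interval 0.288 to 0.316%) and 3319 in replicate 1 (0.410%, 0.396 to 0.424%). The mean was 0.356 ± 0.0764% (SD, n = 2). The leading 5 Rab genes accounted for 40.6% of Rab reads in replicate 2 and 43.7% in replicate 1. At least 10 reads fell on 26 Rab genes in replicate 2 and on 36 in replicate 1, and 42 reached 10 reads over both. At that line stood Rab8b with 10 reads on the inside, and Rab15 and Rab21 with 9 each on the outside. No reads were found for Rab17, Rab19, Rab25, Rab26, Rab38 and Rab44.

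Rab7 was the most abundant in both libraries. It acts on late endosomes and lysosomes. It had 225 reads (383 CPM) in replicate 2 and 409 reads (505 CPM) in replicate 1, a mean of 444 ± 86.3 CPM (SD, n = 2). Below it the order differed: Rab2a was at rank 16 in replicate 2 and at 2 in replicate 1, while Rab18 was at rank 2 in replicate 2 and at 11 in replicate 1. CPM values count reads and are not divided by length, and the libraries favoured different lengths, as described below, so orders between genes carry that difference.

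**Figure D1:**
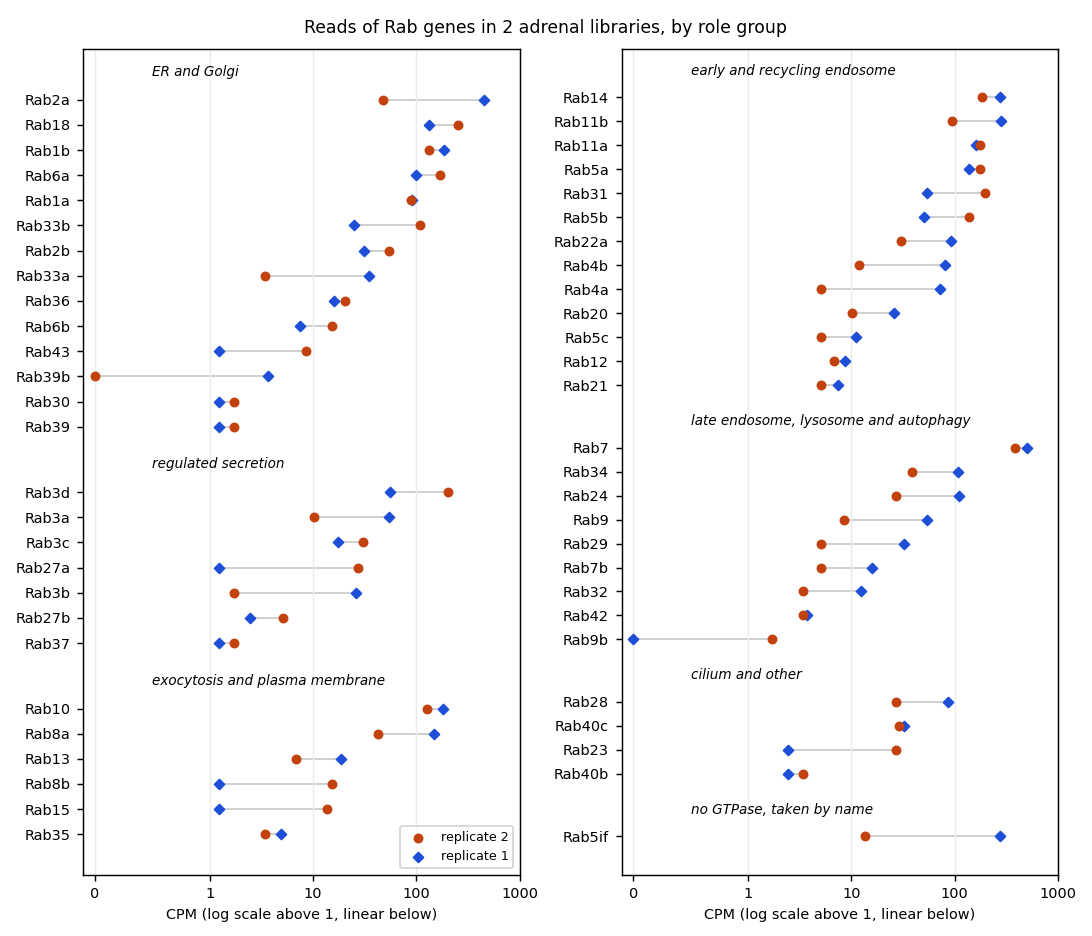
CPM of the 54 Rab genes with reads, replicate 2 as circles and replicate 1 as diamonds, in role groups, on an axis that is logarithmic above 1 and linear below. Rab7 is rightmost in both libraries (383 and 505 CPM), while Rab2a (47.6 and 450 CPM) and Rab5if (13.6 and 274 CPM) lie far apart.

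Replicate 2 was compared with replicate 1 by an exact two-sided binomial test on the reads of each gene, with TMM-scaled library sizes and Benjamini-Hochberg adjustment at 0.05 over all 9809 genes that had 10 reads or more. It compares these libraries and their reads and has no replicate check within a library. The adjusted p-values below come from this test unless another test, set of reads or scaling is named, which then has its own adjustment over all genes it tested. Of the 42 Rab genes tested, 8 were higher in replicate 2, 23 were higher in replicate 1 and 11 were not called. Of all genes, 66.2% were called, 30.6% as higher in replicate 2 and 35.6% as higher in replicate 1, and 73.8% of the Rab genes were. The median log2 ratio of the Rab genes was -1.01, beside -0.01 over all genes tested. With multi-exon models only, 6 of 39 were called for replicate 2 and 26 for replicate 1, with a median of -2.01, beside -0.04 over all genes. The share of all genes called in that setting is not given here. TMM sizes were set anew for it, 676327 in replicate 2 and 553231 in replicate 1, against 692115 and 688191 with all models. A log2 ratio can thus move there even if the gene keeps its reads.

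The ratio followed the length of the transcript. Length was taken from the annotated model with the most reads. Among the 10 Rab genes with a model under 1500 nt, all 10 were higher in replicate 1, with a median log2 ratio of -2.98, beside -3.53 over 1891 genes of that length. From 1500 to 2500 nt, 0 of 11 were called for replicate 2 and 6 for replicate 1, with a median of -0.96, beside -0.94 over 2305 genes. From 2500 to 4000 nt, 5 of 12 were called for replicate 2 and 3 for replicate 1, with a median of 0.32, beside 1.23 over 2944 genes. At 4000 nt or more, 3 of 9 were called for replicate 2 and 4 for replicate 1, with a median of 0.34, beside 1.08 over 2033 genes. Spearman's rho between length and log2 ratio was 0.589 across the 42 Rab genes and 0.628 across 9173 genes, which share the same 2 libraries and are not independent.

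A second test therefore set the expected share of each gene from a lowess curve of log2 ratio by length. Under it 0 of the 42 Rab genes were higher in replicate 2 and 12 were higher in replicate 1. Of all 9173 genes with a length, 42.3% were called, 21.1% as higher in replicate 2 and 21.2% as higher in replicate 1. The median length-adjusted log2 ratio of the Rab genes was -0.39, beside 0.06 over all genes. This left 9 of the 31 calls in the same direction and turned 1, Rab18. It ended 21 calls and added 2, Rab6a and Rab1a.

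**Figure D2:**
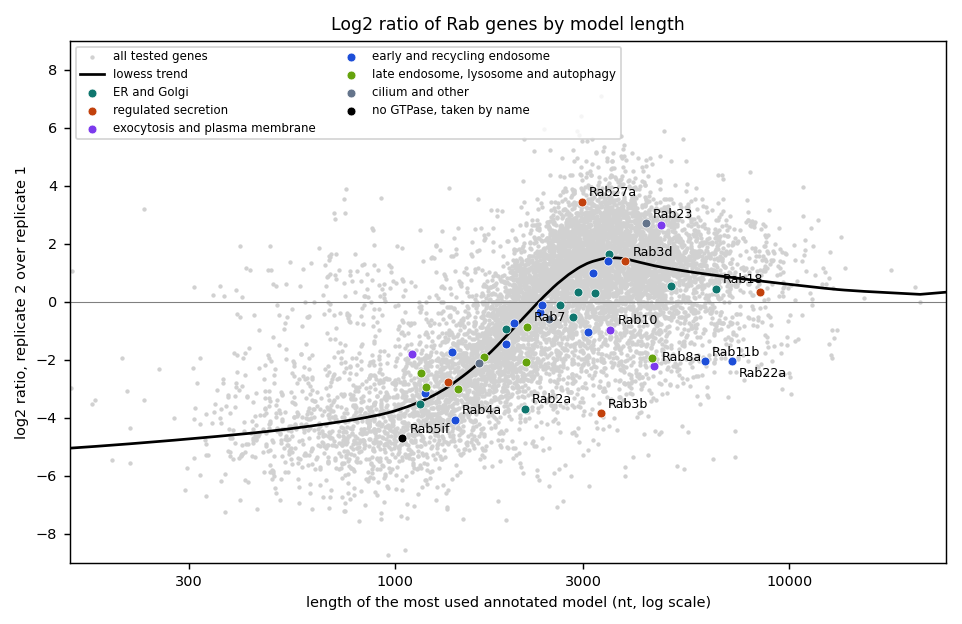
Log2 ratio of replicate 2 over replicate 1 against model length in nt (log axis) for all 9173 tested genes with a length, in grey with their lowess trend, and for the 42 tested Rab genes, coloured by role group. The 10 Rab genes under 1500 nt all lie below 0, and Rab8a, Rab11b, Rab22a and Rab3b lie far below the trend at lengths where most genes lie above 0.

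The counts of each role group below stand against 30.6% of all genes higher in replicate 2 and 35.6% higher in replicate 1. Genes of the ER and Golgi were described first. This group of 15 had reads on 14, and of 10 tested, 2 were higher in replicate 2, 3 were higher in replicate 1 and 5 were not called. Rab1a and Rab1b carry vesicles between the ER and the Golgi. Rab1b had 78 reads (133 CPM) in replicate 2 and 151 (186 CPM) in replicate 1, with a log2 ratio of -0.96 (adjusted p = 3.16e-06). Rab1a had 52 reads (88.5 CPM) in replicate 2 and 74 (91.3 CPM) in replicate 1, and was not called (log2 ratio -0.51, adjusted p = 0.0723), but was with multi-exon models only (-0.70, adjusted p = 0.0150). With the length trend removed Rab1b was at 0.24 and not called, and Rab1a was at -1.55 and higher in replicate 1 (adjusted p = 2.07e-08).

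Rab2a, which works between the Golgi and the ER and in the maturation of secretory granules, lies at chr4:8535644-8607778 on the plus strand. It had 28 reads (47.6 CPM) in replicate 2 and 365 (450 CPM) in replicate 1, 13.1-fold higher in replicate 1 (95% interval 8.92 to 20.0, adjusted p = 5.00e-75). Its model is 2133 nt, a length at which the trend was -0.51, and the length-adjusted log2 ratio was -3.17. In replicate 1, 15 reads fell on unannotated spliced models whose ends lay a median of 1115 nt short of the annotated 3′ end. The adjustment took the full model length, and the part of this in the adjusted ratio was not tested. Rab2b, the paralog of Rab2a, with a model of 2906 nt, had 32 reads in replicate 2 and 25 in replicate 1 and was not called. Rab2a thus took 46.7% of the reads of the pair in replicate 2 (33.7 to 60.0%) and 93.6% in replicate 1 (90.7 to 95.8%), intervals that do not overlap.

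Incomplete reads of Rab2a also differed. Models that matched the 5′ part of the annotated transcript and stopped early held 0 reads in replicate 2 and 49 in replicate 1, 40 of these on models of 6 exons. Over all Rab genes such prefix models held 10 of 81 incomplete reads in replicate 2 (12.3%) and 75 of 178 in replicate 1 (42.1%). Without Rab2a, left out after its values were seen, they held 10 of 77 in replicate 2 (13.0%) and 26 of 120 in replicate 1 (21.7%). Models that held only the 3′ part took 64 reads (79.0%) in replicate 2 and 67 (37.6%) in replicate 1 over all Rab genes. Without Rab2a these were 64 of 77 (83.1%) in replicate 2 and 64 of 120 (53.3%) in replicate 1.

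Rab18, a Rab of the ER and of lipid droplets, had 148 reads (252 CPM) in replicate 2 and 108 (133 CPM) in replicate 1. The log2 ratio was 0.44, a call for replicate 2 (adjusted p = 0.0236) that was lost with multi-exon models only (0.16, adjusted p = 0.435). All reads of Rab18 were kept in that setting, so its log2 ratio moved only through the TMM sizes. The Rab18 model is 6515 nt, and with the length trend removed the ratio was -0.46 and the call turned (adjusted p = 0.0369). Rab33b, a Golgi Rab that also binds the autophagy factor Atg16l1, had 64 reads (109 CPM) in replicate 2 and 20 (24.7 CPM) in replicate 1, 3.18-fold higher in replicate 2 (1.90 to 5.55). Its paralog Rab33a went the other way, with 2 reads in replicate 2 and 28 in replicate 1, 14.1-fold higher in replicate 1 (3.55 to 122). The models are 3492 nt for Rab33b and 1158 nt for Rab33a, and neither was called with the length trend removed.

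Rab6a, which directs traffic within and out of the Golgi, had 100 reads in replicate 2 and 81 in replicate 1, a mean of 135 ± 49.6 CPM (SD, n = 2), and was not called, with a log2 ratio of 0.29. Under total-count scaling it was called (log2 ratio 0.77, adjusted p = 0.000755), and with the length trend removed it was higher in replicate 1 (log2 ratio -1.12). The gene has a pair of alternative exons of 106 nt, and long reads show which of them each molecule carried. The downstream exon, chr7:100629838-100629943 on the plus strand, stood alone in 68 of 99 spliced reads across the site in replicate 2 (68.7%, 58.6 to 77.6%) and in 53 of 75 in replicate 1 (70.7%, 59.0 to 80.6%). The upstream exon, chr7:100629666-100629771, stood alone in 29 of 99 reads in replicate 2 (29.3%) and in 19 of 75 in replicate 1 (25.3%). The mean share of the downstream exon was 69.7 ± 1.40% (SD, n = 2), and the libraries differed by less than the counting error. The exons are shown because they are the choice that the reads resolve. They differ at 30 of 106 bases (identity 71.7%), marked by capitals, and the differing bases touch 24 codons. Most of these codons encode the same amino acid in both exons, so the identity is that of bases and not of protein.
Rab6a downstream exon: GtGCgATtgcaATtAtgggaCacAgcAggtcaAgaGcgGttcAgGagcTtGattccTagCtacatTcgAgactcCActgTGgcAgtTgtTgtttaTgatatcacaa
Rab6a upstream exon: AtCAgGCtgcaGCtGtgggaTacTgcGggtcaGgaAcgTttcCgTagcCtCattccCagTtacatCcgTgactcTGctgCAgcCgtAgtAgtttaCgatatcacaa

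Reads with both exons spliced in were 0 of 99 in replicate 2 and 1 of 75 in replicate 1. The remaining reads kept the intron between the exons, 1 in replicate 2 and 2 in replicate 1, or had neither exon as annotated, 1 in replicate 2 and 0 in replicate 1.

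Rabs of regulated secretion, which prepare and dock hormone granules, had reads on 7 of 8 genes. Of 5 tested, 2 were higher in replicate 2, 2 were higher in replicate 1 and 1 was not called. Rab3d, at chr9:21907491-21918192 on the minus strand, was the most abundant of them by mean, with 120 reads (204 CPM) in replicate 2 and 45 (55.5 CPM) in replicate 1, 2.65-fold higher in replicate 2 (1.87 to 3.82, adjusted p = 1.64e-08). Rab3a, known from synaptic vesicles and chromaffin granules, had 6 reads (10.2 CPM) in replicate 2 and 44 (54.3 CPM) in replicate 1 and was higher in replicate 1 (log2 ratio -2.78, adjusted p = 5.61e-08). In the pair, Rab3a took 4.76% of reads in replicate 2 (1.77 to 10.1%) and 49.4% in replicate 1 (38.7 to 60.2%). The models are 1363 nt for Rab3a and 3835 nt for Rab3d, and with the length trend removed neither was called (log2 ratios 0.16 and -0.078).

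Rab27a, which docks granules and melanosomes at the plasma membrane, had 16 reads (27.2 CPM) in replicate 2 and 1 read in replicate 1, 15.9-fold higher in replicate 2 with a wide interval (2.47 to 667, adjusted p = 0.000578). That was the largest log2 ratio in this direction among the Rab genes tested, 3.45, and it was not called with the length trend removed (log2 ratio 2.22, adjusted p = 0.0717). Rab3b had 1 read in replicate 2 and 21 (25.9 CPM) in replicate 1, 21.1-fold higher in replicate 1 (3.40 to 873, adjusted p = 1.39e-05). Its model is 3327 nt, and the length-adjusted log2 ratio was -5.31 (adjusted p = 1.22e-10). Rab3c had 18 reads in replicate 2 and 14 in replicate 1 and was not called. Rab27b had 3 and 2 reads, Rab37 had 1 in each library, and Rab26 had none.

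In Rab3a the reads also showed a splice site absent from the annotation. Exon 1 ended 6 nt downstream of its annotated end in 0 of 2 spliced reads in replicate 2 (0 to 84.2%) and in 14 of 42 in replicate 1 (33.3%, 19.6 to 49.5%). With 2 reads across the site in replicate 2, a difference was not detectable at this depth. Exons of Rab3a overlap those of Mpv17l2 on the opposite strand.

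Rabs that bring vesicles to the plasma membrane had reads on 6 of 6 genes. Of 4 tested, 1 was higher in replicate 2 and 3 were higher in replicate 1. Rab10, which serves exocytosis and the insertion of glucose transporters, had 75 reads (128 CPM) in replicate 2 and 147 (181 CPM) in replicate 1, with a log2 ratio of -0.97 (adjusted p = 3.01e-06). Rab8a, of exocytosis and the cilium, had 25 reads (42.5 CPM) in replicate 2 and 119 (147 CPM) in replicate 1, with a log2 ratio of -2.24 (adjusted p = 2.14e-15). Both stayed higher in replicate 1 with the length trend removed, at -2.48 and -3.47. Rab8b, the paralog of Rab8a, had 9 reads in replicate 2 and 1 in replicate 1 and was higher in replicate 2 (8.95-fold, 1.24 to 392). It was not called with the length trend removed (log2 ratio 1.46, adjusted p = 0.442). Their models are 4550 nt for Rab8a and 4733 nt for Rab8b.

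Rabs of early and recycling endosomes formed the group with the most reads by mean CPM. Of 12 tested, 2 were higher in replicate 2, 6 were higher in replicate 1 and 4 were not called. Rab5a and Rab5b control fusion at early endosomes. Rab5a had 103 reads (175 CPM) in replicate 2 and 111 (137 CPM) in replicate 1 and was not called, with a log2 ratio of -0.12. Rab5b had 82 reads (139 CPM) in replicate 2 and 41 (50.6 CPM) in replicate 1 and was called for replicate 2, at a log2 ratio of 0.98 (adjusted p = 0.000582). Rab31, which runs between the trans-Golgi and endosomes, had 117 reads (199 CPM) in replicate 2 and 44 (54.3 CPM) in replicate 1, with a log2 ratio of 1.39 (adjusted p = 2.71e-08). With the length trend removed, Rab5b and Rab31 were not called (-0.41 and -0.11).

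Rab11a and Rab11b return membrane from recycling endosomes. Rab11b, at chr17:33742484-33760530 on the minus strand, had 55 reads (93.6 CPM) in replicate 2 and 230 (284 CPM) in replicate 1, with a log2 ratio of -2.06 (adjusted p = 6.11e-26). Rab11a had 104 reads (177 CPM) in replicate 2 and 132 (163 CPM) in replicate 1, and was not called with all models (log2 ratio -0.35, adjusted p = 0.0957). With multi-exon models only it was called as higher in replicate 1 (-0.65, adjusted p = 0.00118). Its reads there were 103 in replicate 2 and 132 in replicate 1, so most of the shift came from the TMM sizes. Rab11a took 65.4% of the reads of the pair in replicate 2 (57.5 to 72.8%) and 36.5% in replicate 1 (31.5 to 41.7%), so the order of the pair differed between the libraries. The models are 2336 nt for Rab11a and 6109 nt for Rab11b, so the shorter model was relatively more frequent in replicate 2, opposite to the trend over all genes.

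Rab14, of traffic between endosomes and the Golgi, had 109 reads (185 CPM) in replicate 2 and 225 (278 CPM) in replicate 1, with a log2 ratio of -1.05 (adjusted p = 5.66e-10) and a length-adjusted one of -2.37. Rab22a, an early endosome Rab, had 18 reads (30.6 CPM) in replicate 2 and 75 (92.6 CPM) in replicate 1, with log2 ratios of -2.04 and, length-adjusted, -2.87. With multi-exon models only its log2 ratio was -3.42, and with annotated models only -3.50. The fast-recycling Rab4a had 3 reads in replicate 2 and 58 in replicate 1, 19.4-fold higher in replicate 1 (6.33 to 97.0), and Rab4b had 7 reads in replicate 2, against 65 in replicate 1. The models are 1419 nt for Rab4a and 1192 nt for Rab4b, and neither was called with the length trend removed.

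For some of these genes the unannotated spliced models stopped well before the annotated end. The deposited data give the ends of models and not of single reads, so each read below carries the end of its model. The unannotated spliced models of Rab11b, 8 reads in all, ended a median of 3431 nt short of the annotated 3′ end. For Rab8a 7 such reads ended a median of 2631 nt short, for Rab22a 6 reads 5165 nt and for Rab18 8 reads 4464 nt. The 15 such reads of Rab2a, all in replicate 1, ended a median of 1115 nt short, 12 of Rab11a 1306 nt and 10 of Rab6a 1095 nt. Rab14 differed between the libraries, with a median of 0 nt in replicate 2 (18 reads) and 1958 nt in replicate 1 (11 reads). For Rab7, 36 such reads ended 11 nt short, and for Rab5b 16 reads ended a median of 0 nt short. Not every gene with such reads is listed here. Reads counted on annotated models carry the annotated ends, so the ends of single reads are not known for either kind of model. The part of this in the length-adjusted calls was not tested.

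Rabs of late endosomes, lysosomes and autophagy had reads on 9 of 10 genes, and 7 of 7 tested were higher in replicate 1, beside 35.6% of all genes. The median model of this group was 1685 nt. With the length trend removed, 2 of the 7 were higher in replicate 1, Rab7 and Rab7b, beside 21.2% of all genes. Rab7 lies at chr6:87999106-88045270 on the minus strand. Its log2 ratio was -0.87 (adjusted p = 6.67e-13) and its length-adjusted one -0.43 (adjusted p = 0.00111). Rab7b, which returns cargo from endosomes to the trans-Golgi, had 3 reads in replicate 2 and 13 in replicate 1, with a length-adjusted log2 ratio of -3.21. Rab34, of lysosome positioning and the cilium, had 23 reads (39.1 CPM) in replicate 2 and 87 (107 CPM) in replicate 1, with a log2 ratio of -1.90 (adjusted p = 1.33e-09). Rab24, linked to autophagy, had 16 reads (27.2 CPM) in replicate 2 and 89 (110 CPM) in replicate 1, with a log2 ratio of -2.45 (adjusted p = 4.75e-13). Length-adjusted, Rab34 was at 0.048 and Rab24 at 0.99, and neither was called. Both Rab24 ratios included 9 unspliced reads in replicate 2 whose origin is uncertain, as described below. With multi-exon models only, and no length adjustment, Rab24 was at -3.87.

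Rab24 and Rab34 showed alternative forms. Intron 5 of Rab24, 191 nt at chr13:55320554-55320744 on the minus strand, was kept in 5 of 7 spliced reads across it in replicate 2 (71.4%, 29.0 to 96.3%) and in 43 of 89 in replicate 1 (48.3%, 37.6 to 59.2%), a difference within counting error. The other 6 introns of the gene were kept in at most 7 of 89 reads in replicate 1 and in at most 1 of 7 in replicate 2. Rab34 began with one of a pair of first exons. The downstream one, chr11:78188779-78189390 on the plus strand, was used in 14 of 23 reads in replicate 2 (60.9%, 38.5 to 80.3%) and in 38 of 87 in replicate 1 (43.7%, 33.1 to 54.7%), and the upstream one, chr11:78188430-78188511, in 8 of 23 reads in replicate 2 (34.8%) and in 43 of 87 in replicate 1 (49.4%). Here too the intervals of the libraries overlap.

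**Figure D3:**
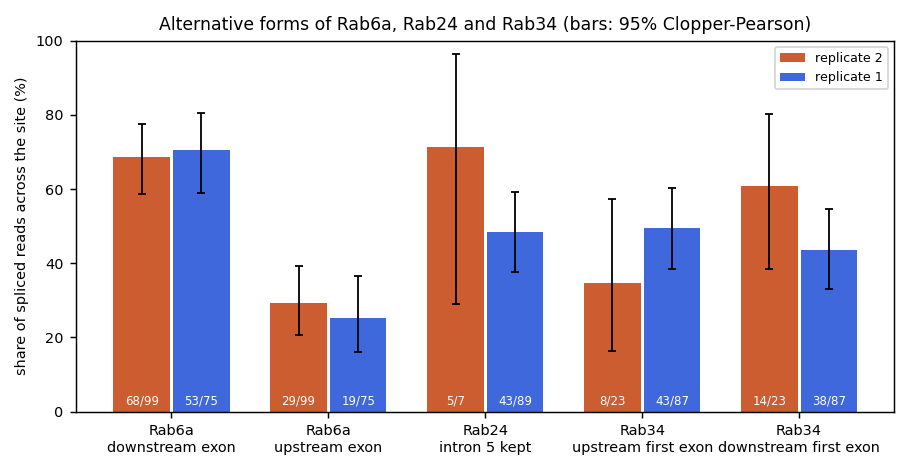
Share of spliced reads across a site that carried each form, replicate 2 left of replicate 1, with 95% Clopper-Pearson intervals and the reads behind each bar printed at its foot. The Rab6a downstream exon reached 68.7% in replicate 2 and 70.7% in replicate 1, and the intervals of every pair of bars overlap.

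Among the Rabs of the cilium and other roles, Rab28 had 16 reads (27.2 CPM) in replicate 2 and 70 (86.4 CPM) in replicate 1 and was higher in replicate 1 (log2 ratio -2.10, adjusted p = 6.48e-09). Rab23, an inhibitor of Hedgehog signalling, had 16 reads (27.2 CPM) in replicate 2 and 2 in replicate 1 and was higher in replicate 2 (7.95-fold, 1.87 to 71.3). Neither was called with the length trend removed. Rab40c, whose protein also recruits a ubiquitin ligase, had 17 reads in replicate 2 and 26 in replicate 1 and was not called. Rab5if, which is no GTPase, had 8 reads (13.6 CPM) in replicate 2 and 222 (274 CPM) in replicate 1, 27.9-fold higher in replicate 1 (13.9 to 65.4). Its model of 1045 nt is among the shortest, and with the length trend removed the log2 ratio was -1.03 and not called (adjusted p = 0.0517).

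Reads on annotated models made up 85.2% of Rab reads in replicate 2 (83.4 to 86.8%) and 85.6% in replicate 1 (84.3 to 86.7%), a mean of 85.4 ± 0.284% (SD, n = 2). Over all protein-coding genes the share was 74.2% in replicate 2 and 78.7% in replicate 1. Incomplete matches held 4.57% of Rab reads in replicate 2 and 5.36% in replicate 1, where all protein-coding genes had 10.9% and 10.8%. Of 31 Rab genes with at least 20 reads on annotated models, 27 had a leading model with at least 90% of those reads. The 4 annotated Rab pseudogenes had 0 reads.

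The share of the most used model was compared by Fisher's exact test, two-sided, adjusted over the 4733 genes that had 10 reads or more in each library and at least 2 models. Of 24 Rab genes tested, 7 were called, and 28.8% of all genes were. The 7 were Rab14, Rab22a, Rab24, Rab31, Rab3d, Rab40c and Rab5b. With annotated models only, 0 of 15 Rab genes were called by Fisher's test, and 1 had an unadjusted p under 0.05. In that setting fewer of the 24 genes met the limits on reads and models.

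Rab31 differed most by that test. Its main annotated model held 90 of 117 reads in replicate 2 (76.9%, 68.2 to 84.2%) and 8 of 44 in replicate 1 (18.2%, 8.19 to 32.7%), with an adjusted p of 4.17e-10. In replicate 2, 10 reads lay on an unspliced model of 2376 nt inside the last exon, at chr17:65651729-65654104. In replicate 1, 34 of the 44 reads lay on an unspliced model of 1532 nt with the same lower coordinate. With multi-exon models alone Rab31 had 107 reads in replicate 2 and 9 in replicate 1, a log2 ratio of 3.21.

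Rab22a and Rab24 also had unspliced models. The main annotated model of Rab22a held 5 of 18 reads in replicate 2 (27.8%) and 57 of 75 in replicate 1 (76.0%, adjusted p = 0.00158). Unspliced models of Rab22a held 11 reads in replicate 2, 9 of them on a model of 3458 nt, and 10 in replicate 1. Its multi-exon models held 7 reads in replicate 2 and 65 in replicate 1. The main annotated model of Rab24 held 2 of 16 reads in replicate 2 (12.5%) and 45 of 89 in replicate 1 (50.6%, adjusted p = 0.0236). In replicate 2, 9 of the 16 Rab24 reads lay on an unspliced model of 3012 nt with only 138 nt inside the gene. Prelid1 overlaps exons of Rab24 on the opposite strand, so the origin of these reads is uncertain, and multi-exon models gave Rab24 7 reads in replicate 2 and 89 in replicate 1, a log2 ratio of -3.87.

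For Rab3d, Rab5b and Rab14 the main annotated model took a larger share in the library that held more reads of the gene. The main annotated model of Rab3d held 97 of 120 reads in replicate 2 (80.8%) and 26 of 45 in replicate 1 (57.8%). That of Rab5b held 67 of 82 in replicate 2 (81.7%) and 22 of 41 in replicate 1 (53.7%). That of Rab14 held 78 of 109 in replicate 2 (71.6%) and 197 of 225 in replicate 1 (87.6%). For Rab40c the most used model was the pool of unspliced unannotated ones, with 1 of 17 reads in replicate 2 and 14 of 26 in replicate 1, 10 of them on a stretch of 172 nt in the last exon.

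**Figure D4:**
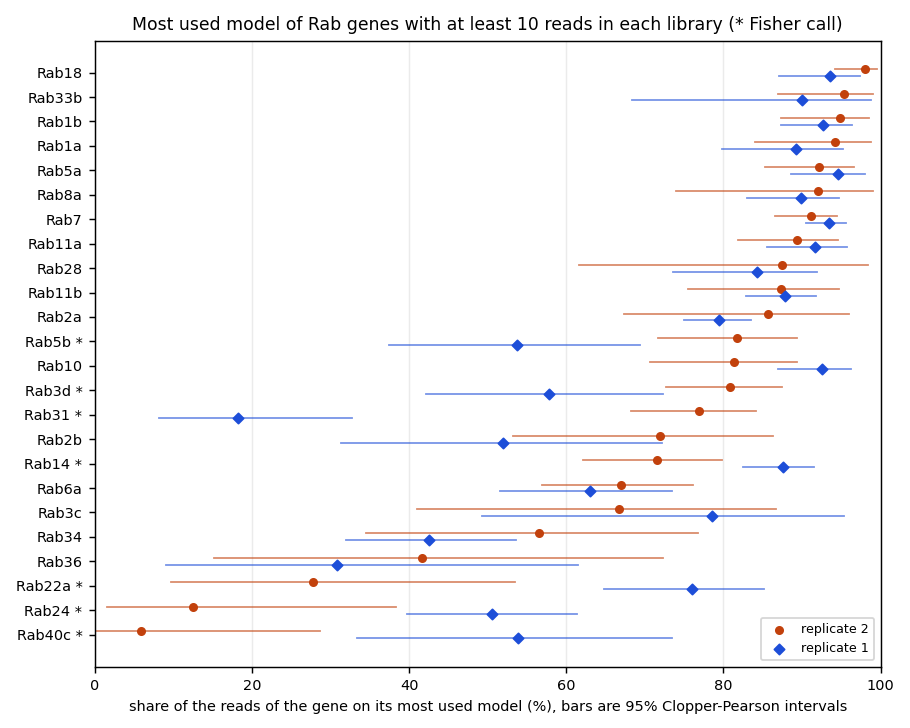
Share of the reads of each gene on its most used model, with 95% Clopper-Pearson intervals, for the 24 Rab genes tested, replicate 2 as circles above replicate 1 as diamonds. An asterisk marks the 7 called genes, and Rab31 (76.9% in replicate 2 and 18.2% in replicate 1) has intervals far apart.

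The partners of Rab proteins were counted in 4 lists. Of 8 genes for prenylation and GDI proteins, 7 were tested, 3 higher in replicate 2, 3 higher in replicate 1 and 1 not called, with a median log2 ratio of 0.39. Of 29 exchange factors, 15 were tested, 4 higher in replicate 2 and 1 in replicate 1, with a median of 0.79. Of 29 GTPase-activating proteins, 22 were tested, 13 higher in replicate 2 and 2 in replicate 1, with a median of 1.44. Of 38 effectors, 21 were tested, 12 higher in replicate 2 and 2 in replicate 1, with a median of 1.24. With the length trend removed, calls for replicate 2 and then replicate 1 were 3 and 2 of 7 for prenylation and GDI. They were 3 and 1 of 14 exchange factors, 8 and 2 of 22 GTPase-activating proteins, and 8 and 3 of 20 effectors. The annotated model with the most reads, which set the length, was short for some effectors, at 700 nt for Micall1 and 742 nt for Rabep2. The part of this in the counts was not tested. The shares over all genes were 30.6% for replicate 2 and 35.6% for replicate 1, or 21.1% and 21.2% with the length trend removed.

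By mean level the lists were led by Gdi2, which extracts Rabs from membranes. Gdi2 had 317 reads (539 CPM) in replicate 2 and 240 (296 CPM) in replicate 1. It was higher in replicate 2 (log2 ratio 0.39), and with the length trend removed it was higher in replicate 1 (-0.92). Appl2, an effector of Rab5, had 334 reads in replicate 2 and 47 in replicate 1 (log2 ratio 2.81), and the GTPase-activating protein Tbc1d9b 335 in replicate 2 and 37 in replicate 1 (log2 ratio 3.15). Both stayed higher in replicate 2 with the length trend removed, at 1.54 and 1.87.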

How the data were processed

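The authors deposited, for each library, a table of raw counts of reads on TALON transcript models, per the file headers. The build is mm10 and the annotation GENCODE M21, per the notes beside the files. Models with no reads are not listed. The aligner is not given in the sources used here. Versions of the authors' tools are likewise not stated. Starts, ends, exon numbers and model lengths come from the deposited files, and a length is that of the model, not of the reads.

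For each gene the counts of its models were added up, and CPM was computed over all reads of the library. Log2 ratios used a pseudocount of 0.5 reads and TMM sizes from edgeR 4.0.16. Tests used scipy 1.17.1 and were tested on simulated data, where most changes in genes with fewer than 50 reads were missed, so that a gene not called at such depth may still differ. The lowess trend (statsmodels 0.14.6) had a span of 0.3 and used genes with at least 20 reads. A single group of 2 libraries leaves no contrast with replicates, so no quasi-likelihood fit was made. Intervals (95%, Clopper-Pearson) and the floor of 3 reads cover counting error only, since amplified reads are not independent molecules.

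Members, role groups and lists were chosen with earlier results of these data known. Genes named were the 25 with the highest mean CPM, the regulated secretion group, the 5 largest called ratios in each direction, those called for their most used model and those beside 10 reads. Rab7b was named after its values were seen, as were the partners in the lists, of which not every member is reported here by name. Alternatives were other scalings (DESeq2 1.42.0 size factors, total counts), filters, pseudocount, model classes and length trend. No genome sequence was used here.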

Additional observations from a re-analysis of the deposited data

Results flagged for a closer look

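Antisense models over Rab genes lie outside the counts above, and their reads exceeded the 3 that a count of 0 allows. They held 41 reads in replicate 2 and 118 in replicate 1, over 27 Rab genes, of which 1 and 2 were spliced. Rab31 took 4 of these reads in replicate 2 and 73 in replicate 1, and Rab11b 12 in replicate 2 and 3 in replicate 1. Their source was not tested.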

How the results depend on the processing

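No paired analysis was possible because there is 1 group of 2 libraries. Counts of Rab genes higher in replicate 2 and in replicate 1, 8 and 23, were 5 and 15 with at least 50 reads and 0 and 12 with the length trend removed. With total counts they were 9 and 19, where the median of all genes shifted by 0.47. At least 10 reads were found for 26 to 36 Rab genes in single libraries, against 42 over both. The share on annotated models had a median of 86.5% over genes. The 7 calls for the most used model were 4 with at least 20 reads in each library and 0 with annotated models only. The cause was not tested. Among these alternative settings, the share of all genes called is given above for the length trend only. With the length trend removed, log2 ratios changed sign for Rab18 (-0.46), Rab1b (0.24), Rab6a (-1.12), Rab3d (-0.078), Rab31 (-0.11), Rab5b (-0.41), Rab34 (0.048), Rab24 (0.99), Rab28 (0.0092), Rab4b (0.24), Rab3a (0.16), Rab20 (1.12), Rab13 (1.77), Rab29 (0.43), Rab2b (-0.80), Rab3c (-0.37), Rab6b (-0.59) and Rab12 (0.14). With multi-exon models only, Rab3a was at -3.56, Rab27a at 4.75, Rab33a at -4.43, Rab3c at -0.29 and Rab40c at 0.11, and with annotated models only, which shifted the median of all genes by -0.16, Rab4b was at -4.27. A pseudocount of 2 reads gave 2.58 for Rab27a, -2.95 for Rab3b, 1.87 for Rab8b and -2.92 for Rab33a. Many genes have few reads, so their ratios are wide, and p-values measure only the spread of reads between these libraries.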
